A study of Mus musculus with 12 samples.

Results

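The libraries described here follow the normal mouse retina from postnatal day 14 (P14) to day 17 (P17), in pups that breathed room air throughout and stayed with their own mother. They were chosen by label: all room-air libraries of the series, which are 4 of its 12, with 7983 of the 25472 cells that belong to a library. Pups were of the C57B6 strain. Each age has 1 library of whole retina and 1 library of retina depleted of rods, so each age has 2 libraries and each fraction compares 1 library with 1. The other 8 libraries are from pups with oxygen-induced retinopathy (OIR), raised by a foster mother, in 75% oxygen from day 7 to day 12 and in room air after that. They entered the models only to give the spread between libraries, and a comparison of courses where stated. Cells were profiled by Drop-seq, in which each droplet joins a cell to a barcoded bead and 3' ends of RNA are counted as unique molecular identifiers (UMIs). The labels do not say which libraries came from separate animals or how many pups a library pools. A p-value therefore sets a difference only against how libraries vary, and that variation may be technical.

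The mouse retina opens to patterned light at about the time the first of these ages was taken, when the eyelids part. Rods and cones are then lengthening the outer segments that hold their opsins, bipolar and amacrine cells are refining their synapses, and the deeper vessel layers are filling in. Müller glia span the tissue, take up glutamate and potassium, and switch on early-response and stress genes readily when the tissue is disturbed.

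The 4 libraries differed in ways other than age. The whole-retina library at P17 was the shallowest: 569 of its 932 cells had at least 200 detected genes, and the median of its cells that also had 250 UMIs was 437.5 UMIs, against 874, 995 and 1022 in the other libraries. All cells were therefore thinned to 250 UMIs each for the tests. At that depth a median cell showed 213 genes in the rod-depleted library at P14 and 211 at P17, and 221 genes in whole retina at P14 and 206 at P17. Both P17 libraries share a run in the labels, and each P14 library has another run, so age and run cannot be told apart. The columns matched to whole retina at P14 carry another replicate number than the label, so that match is less sure than the others. Between room-air libraries 1 barcode was shared.

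Genes of the sex chromosomes set the whole-retina library at P17 apart as well. Xist, the RNA made from the inactive X chromosome of female cells, stood at 20.01 UMIs per 10000 in the rod-depleted library at P14, 25.3 in the rod-depleted library at P17 and 37.9 in whole retina at P14. In whole retina at P17 Xist had 0 of 322551 UMIs, which allows up to 0.0930 per 10000. The Y-linked genes ran the other way, with 34 UMIs of Ddx3y and 37 of Eif2s3y in whole retina at P17 and at most 6 UMIs of either in each other room-air library. Within whole retina, age thus cannot be told apart from this difference in sex-linked RNA, and within the rod-depleted pair both libraries had the pattern with Xist. Where leaving out the whole-retina library at P17 ended the call of a gene described below, the value without it is given.

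Cell classes were named from markers, as X-like. In each class named below, the summed level of its markers was higher inside the class than in the other cells of the same library. In Müller-like cells, for instance, the 12 markers summed to between 617.6 and 762.9 UMIs per 10000 in the 4 libraries, against 25.4 to 52.0 in the other cells. Cone-bipolar-like cells were the least distinct, with 82.2 to 111.6 per 10000 in the class and 32.7 to 71.4 outside it.

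In Müller-like cells, most genes that passed the test fell, and members of the immediate early list were among them. Of 1958 genes tested, 20 fell (1.02%) and 4 rose (0.204%) at an adjusted p below 0.05 in limma, a linear model with variances moderated across genes, and 330 had an unadjusted p below 0.05. Values are mean UMIs per 10000 in thinned cells, and differences are on the scale log2(value + 1), which understates the change of low genes. The test drew on 503 and 241 Müller-like cells at P14 and on 333 and 44 at P17, rod-depleted first in each case.

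Atf3, a transcription factor induced by stress, had the smallest p. It stood at 12.3 per 10000 in the rod-depleted library and 13.1 in whole retina at P14, and at 0.601 and 0.909 at P17. Both P17 libraries lay far below both P14 libraries, and the log2 difference was -2.97 ± 0.34 (SE), with a limma adjusted p of 2.76e-05. In cells thinned to 250 UMIs, 89 of 503 and 48 of 241 Müller-like cells had an Atf3 UMI at P14 (17.7%, exact 95% binomial interval 14.5 to 21.3, and 19.9%, 15.1 to 25.5), against 3 of 333 and 1 of 44 at P17 (0.901%, 0.186 to 2.61, and 2.27%, 0.0575 to 12.0). Without thinning the shares were 34% and 32.4% at P14 and 1.20% and 2.27% at P17. Rod-bipolar-like cells of the same 4 libraries, which should lack Atf3, had a UMI in 0.137%, 0.431%, 0.118% and 0.0% of thinned cells, in the order P14 rod-depleted, P14 whole retina, P17 rod-depleted and P17 whole retina, with median genes at equal depth as given above. The Atf3 share at P14 was thus well above that of a class that should lack it. At P17 it was 0.901% against 0.118% in rod-depleted. In whole retina at P17 it was 2.27%, from 1 of 44 cells, against 0.0%. So few cells with a UMI cannot show whether the share at P17 had fallen to that of the class that should lack Atf3. Intervals cover counting error only.

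Ddit3, which encodes the stress factor CHOP, was at 7.48 (rod-depleted) and 6.97 (whole retina) per 10000 at P14 and at 0.961 and 0.0 at P17, a log2 difference of -2.55 ± 0.37 (limma adjusted p = 0.00068). Maff, a small Maf factor that pairs with other leucine-zipper proteins, fell from 8.51 and 5.15 to 0.0 in both P17 libraries (-2.93 ± 0.45, limma adjusted p = 0.00105). Ifrd1, a regulator of early-response transcription, fell from 5.73 and 5.31 to 0.360 and 0.0 (-2.48 ± 0.42, limma adjusted p = 0.00281). For these genes no P17 library reached any P14 library. Where a level is 0.0, the fitted difference depends on the added 1 and is no bound.

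Others were high mainly in the rod-depleted library at P14. Socs3, the feedback inhibitor of JAK-STAT signals, was at 10.1 there and at 1.49 in whole retina, and at 0.601 and 0.0 at P17 (limma adjusted p = 0.0141). Irf1, an interferon-response factor, was at 13.7 and 3.32 at P14 and at 0.480 and 0.909 at P17 (limma adjusted p = 0.0231). The growth-arrest genes Gadd45b and Gadd45g stood at 12.3 and 11.1 in the rod-depleted library at P14, at 2.82 and 1.83 in whole retina at P14, and at 1.08 or below in both P17 libraries (limma adjusted p = 0.0420 and 0.0292). Nr4a1, an orphan nuclear receptor of the early response, fell from 27.3 and 13.4 to 6.13 and 1.82, and Klf6 from 11.3 and 8.30 to 3.24 and 0.909 (limma adjusted p = 0.0152 and 0.0404).

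Without the whole-retina library at P17, Atf3, Maff, Ddit3, Irf1, Gadd45b and Socs3 stayed past the threshold (limma adjusted p from 0.00179 for Atf3 to 0.0320), among 8 genes that fell and 0 that rose. Ifrd1, Gadd45g, Nr4a1 and Klf6 did not (limma adjusted p = 0.0872, 0.219, 0.396 and 0.802). Leaving out the whole-retina library at P14 also left 8 genes that fell and 0 that rose, and Gadd45b, Nr4a1 and Klf6 lost their calls (limma adjusted p = 0.0528, 0.0528 and 0.0632). Without the rod-depleted library at P14, 11 genes fell and 10 rose. Atf3, Ddit3, Maff and Ifrd1 stayed past the threshold there, while Socs3, Irf1, Gadd45b, Gadd45g, Nr4a1 and Klf6 did not (limma adjusted p = 0.161, 0.192, 0.245, 0.219, 0.136 and 0.219). Leaving out the rod-depleted library at P17, so that the age difference rests on the shallow library alone, gave 344 genes (108 higher and 236 lower), without Irf1 and Gadd45b (limma adjusted p = 0.0700 and 0.125).

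**Figure D1:**
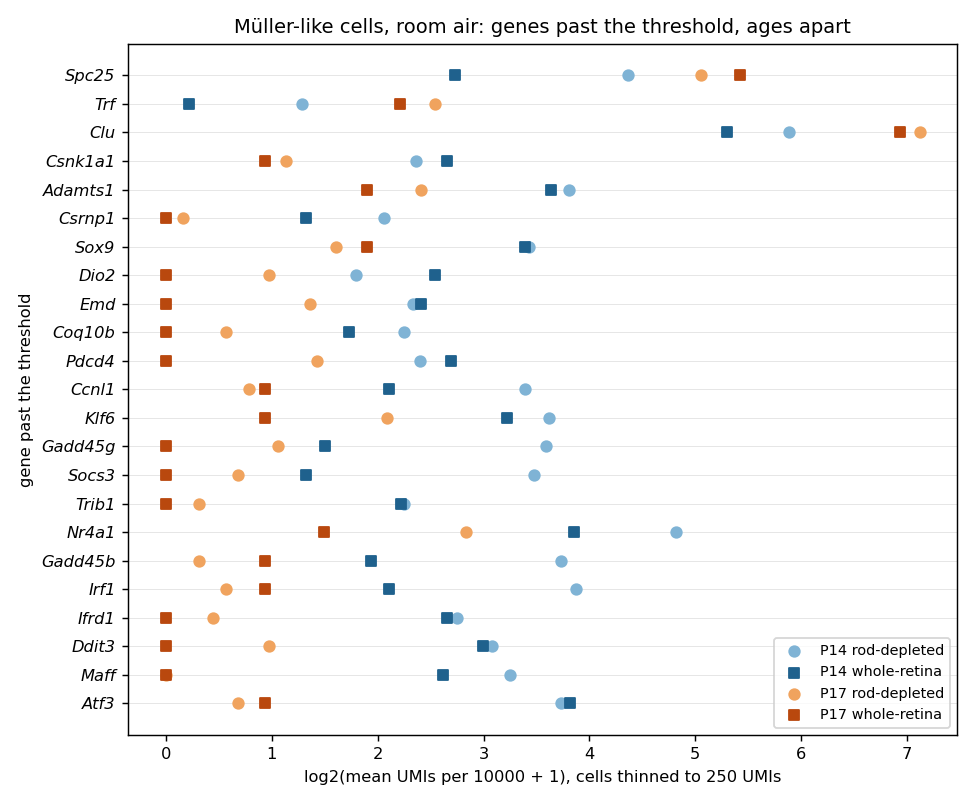
Each row is a gene past the threshold in Müller-like cells whose P14 and P17 libraries did not overlap; the x axis is log2(mean UMIs per 10000 + 1) and each point is 1 of the 4 room-air libraries (circles rod-depleted, squares whole retina; blue P14, orange P17). For the 20 genes that fell, both P17 points lie to the left of both P14 points, as for Atf3 at 12.3 and 13.1 against 0.601 and 0.909, and for Clu, Spc25 and Trf both lie to the right.

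Of 16 heat shock and unfolded protein genes tested, 1 fell, Ddit3, and the median was -0.28, with -0.01 in the rod-depleted pair. Across the list of immediate early genes, 23 members were tested in Müller-like cells and 6 fell, against the 1.02% of all genes that fell. The median difference was -1.02, with -0.79 in the rod-depleted pair and -1.10 in whole retina, beside -0.06 over all genes tested. In 19 of the 23 both P17 libraries lay below both P14 libraries, and in 0 above, where 22.7% of all genes tested lay below and 18.5% above. Of the 23 members, 21 had a negative difference and 2, Btg2 and Hes1, a positive one, and the size of the difference varied. Fos, the most abundant of the founding members, was at 140 and 137 per 10000 at P14 and at 123 and 85.5 at P17 (-0.43 ± 0.22, limma adjusted p = 0.310). Btg2, an antiproliferative early-response gene, was at 47.7 and 42.7 at P14 and at 51.7 and 45.5 at P17. Hes1, a Notch target, was at 6.92 and 7.47 and then at 7.45 and 9.09.

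The 250 bases before the start of the genes that fell were read for a pair of motifs bound by leucine-zipper factors of the Atf, Maf, Fos and Jun families. Promoter sequences are from RefSeq (build GRCm38.p6), where 17 of the 20 genes matched by symbol. The cyclic AMP response element TGACGTCA was found in 3 of the 17 (17.6%), against 4.54% of the 1497 genes tested in Müller-like cells that matched and 1.77% of all 27025 genes with a promoter. The AP-1 letters TGANTCA were found in 2 of the 17 (11.8%), against 6.28% and 7.82%. Each motif reads the same on both strands and they do not overlap by their letters. A match is a description of the sequence and not a binding site. The windows of 3 of the genes that fell are shown because they carry a match, 5′ to 3′ on the gene's strand, with the motif in capitals: Maff (chr15:79347471-79347518, plus strand, motif starting 29 bases before the gene start), Ccnl1 (chr3:65958250-65958287, minus strand, 18 bases before) and Ddit3 (chr10:127290543-127290577, plus strand, 242 bases before). Ccnl1, a cyclin that takes part in splicing, fell from 9.46 and 3.32 to 0.721 and 0.909 per 10000 (limma adjusted p = 0.0231, 0.0872 without the whole-retina library at P17 and 0.219 without the rod-depleted library at P14).
Maff: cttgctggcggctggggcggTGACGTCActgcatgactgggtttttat
Ccnl1: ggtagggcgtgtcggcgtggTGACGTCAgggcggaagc
Ddit3: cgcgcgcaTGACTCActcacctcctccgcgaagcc

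Among genes of Müller glia function, 32 were tested; 2 rose and 1 fell, beside 0.204% and 1.02% of all genes, and the list's median was -0.09 beside -0.06. In 8 members both P17 libraries lay above both P14 libraries and in 8 below, where 18.5% and 22.7% of all genes did, which is near the background. Clu, the secreted chaperone clusterin, was at 58.2 and 38.3 per 10000 at P14 and at 138 and 121 at P17, with both P17 libraries above both P14 libraries (1.43 ± 0.24, limma adjusted p = 0.00281, and 0.0722 without the whole-retina library at P17 and 0.0688 without that at P14). Spc25, a kinetochore gene that also marks Müller glia, rose from 19.6 and 5.64 to 32.2 and 41.8 (limma adjusted p = 0.0458, 0.595 without the whole-retina library at P17 and 0.953 without that at P14). Sox9, a factor of glial progenitors that Müller glia keep, fell from 9.78 and 9.46 to 2.04 and 2.73 (-1.66 ± 0.33, limma adjusted p = 0.0141). Sox9 lost its call without the whole-retina library at P17 (limma adjusted p = 0.0610), that at P14 (0.0891) or the rod-depleted library at P14 (0.0867). Glutamine synthetase, Glul, was at 94.2 and 139 at P14 and at 166 in both P17 libraries (0.53 ± 0.22, limma adjusted p = 0.242). The water channel Aqp4 was at 6.92 and 10.95 and then at 17.1 and 12.7 (limma adjusted p = 0.319). Trf, transferrin, an iron carrier outside this list, rose from 1.43 and 0.166 to 4.80 and 3.64 (limma adjusted p = 0.0420, 0.226 without the whole-retina library at P17 and 0.839 without that at P14).

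The same list of early-response genes was also lower at P17 in several other classes, by counts without a test. Summed over its 29 genes found in the table and without thinning, Müller-like cells carried 611.9 UMIs per 10000 in the rod-depleted library at P14 and 369.2 at P17, and 569.9 and 296.5 in whole retina. Endothelial-like cells of the rod-depleted pair carried 124.9 (exact 95% Poisson interval 119.7 to 130.2) at P14 and 40.6 (37.0 to 44.5) at P17. Pericyte-like cells had 139.2 and 77.6, and microglia-like cells 161.1 and 102.6. In amacrine-like cells the level went from 25.6 to 10.8 in rod-depleted and from 26.45 to 14.8 in whole retina, and in cone-like cells from 40.8 to 17.5 and from 30.7 to 16.7. Ganglion-like cells of the rod-depleted pair were at 13.2 at both ages. Rod-bipolar-like cells did not follow: 17.9 and 14.4 in rod-depleted, but 7.82 at P14 and 12.9 at P17 in whole retina.

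**Figure D2:**
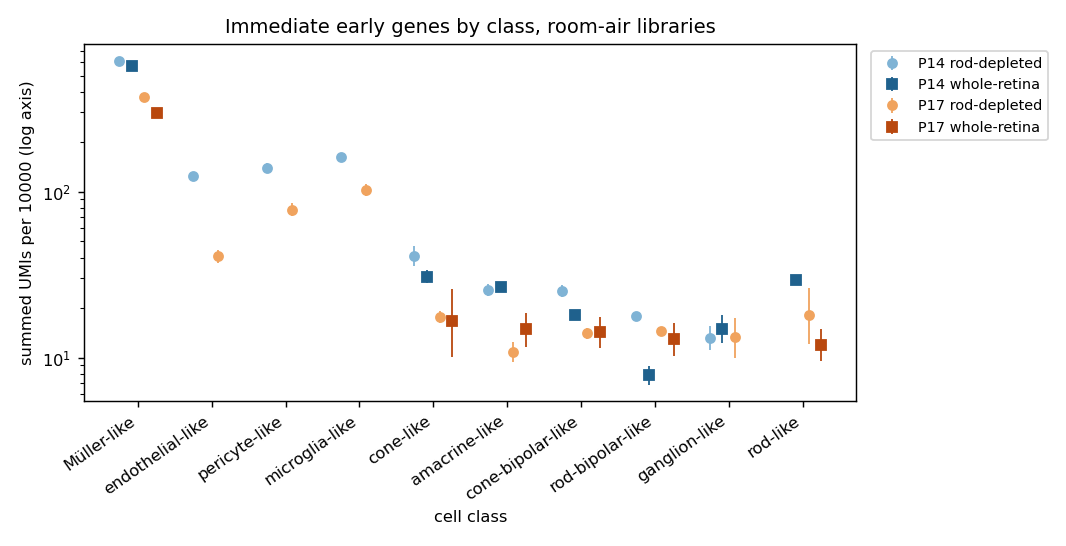
The y axis is the summed level of the immediate early list in UMIs per 10000, on a log axis, for the tested and paired classes (x axis) in each room-air library that held at least 20 such cells; bars are exact 95% Poisson intervals, which cover counting error only. Müller-like cells stand highest in every library, at 611.9 and 569.9 at P14 and 369.2 and 296.5 at P17, and endothelial-like cells go from 124.9 to 40.6.

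The course in room air was also set against the course in OIR, with 5 libraries at P14 and 3 at P17, by the difference of the differences. In Müller-like cells 3 of 1958 genes passed (0.153%), with 186 at an unadjusted p below 0.05, and 0 genes passed in the other 4 classes tested, where 134 to 200 had an unadjusted p below 0.05. Ddit3, which fell in room air, was at 5.74 ± 1.65 per 10000 (SD, n = 5) at P14 and 6.24 ± 1.25 (SD, n = 3) at P17 in OIR, and the courses differed by -2.69 ± 0.46 on the log2 scale (limma adjusted p = 0.0138). Socs3 was at 5.32 ± 3.98 and then 6.81 ± 3.26 in OIR, a difference of courses of -2.55 ± 0.50 (limma adjusted p = 0.0402). For mt-Co1, a mitochondrially encoded subunit of cytochrome oxidase, room-air levels were 3.42 and 6.31 at P14 and 9.85 and 30.9 at P17, while OIR went from 10.2 ± 6.17 to 4.53 ± 0.830 (difference of courses 2.64 ± 0.53, limma adjusted p = 0.0402). These calls rested on single libraries: 0 genes passed without the whole-retina library at P17 or the rod-depleted library at P14 in room air, 1 without whole retina at P14, and 140 without the rod-depleted library at P17. Without any of 4 of the OIR libraries, 0 or 1 passed. Atf3 was lower at P17 in OIR too, at 19.5 ± 6.99 and then 8.91 ± 0.227, and its courses differed by -1.96 ± 0.42 (limma adjusted p = 0.0577).

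In cone-bipolar-like cells, which pass cone signals to the inner retina, 13 of 2402 genes rose (0.541%) and 9 fell (0.375%). Car2, carbonic anhydrase 2, was at 3.80 and 5.54 per 10000 at P14 and at 17.1 and 23.1 at P17, and the P17 libraries lay above both P14 libraries (1.90 ± 0.35, limma adjusted p = 0.0257). Car2 is on the Müller glia list and was at 60.2 and 74.69 in Müller-like cells at P14 and 74.11 and 65.45 at P17. Of 10 genes of that list tested in cone-bipolar-like cells, 9 had a positive difference and 1 a negative. Their median was 0.694, beside -0.066 over all genes tested. The part of Müller RNA in the Car2 difference was not tested. Among the genes that fell, Nnat, an imprinted gene of developing neurons, went from 4.11 and 6.10 to 1.74 and 1.24, and Kif5c, a kinesin motor of axonal transport, from 2.59 and 3.86 to 1.44 and 0.0 (limma adjusted p = 0.0393 and 0.0442). The chaperones Hspa4 and Pdia3 fell from 2.13 and 3.05 to 0.605 and 0.0, and from 2.43 and 3.86 to 0.680 and 0.825 (limma adjusted p = 0.0388 and 0.0393). The adaptor protein Ywhab fell from 8.06 and 13.3 to 3.93 and 2.47 (limma adjusted p = 0.0388). These calls were close to the threshold: a second draw of the thinning left 1 gene, and 0 genes passed without either whole-retina library. Without the one at P17, limma adjusted p was 0.662 for Car2, Nnat, Hspa4, Pdia3 and Ywhab and 0.887 for Kif5c. Without the rod-depleted library at P17 the count was 207, and without that at P14 it was 8. The class pools 4 clusters whose shares differed between libraries. The largest, led by Lhx4 and Ptprz1, made up 58.2% of the class at P14 and 38.2% at P17 in rod-depleted, and 45.0% and 39.2% in whole retina. A cluster with Nnat among its leading genes made up 5.32% and 10.4% in rod-depleted and 13.9% and 5.15% in whole retina. With cluster shares held fixed, an alternative chosen after seeing the data, 25 genes passed; the difference of Nnat was -1.21 and passed, and those of Kif5c and Pdia3 (-1.31 and -1.05) did not.

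Of the other genes that rose in these cells, several belong to other cell types. Pde6g, Prph2, Pdc and Rom1 are rod genes; Hbb-bs, Hba-a1 and Hba-a2 are globins of red blood cells. Pde6g, a subunit of the rod phosphodiesterase, was at 0.608 and 1.61 per 10000 at P14 and at 2.12 and 15.7 at P17 (1.82 ± 0.37, limma adjusted p = 0.0388, and 0.662 without the whole-retina library at P17), and Hbb-bs at 1.67 and 0.0 and then at 5.37 and 32.2 (limma adjusted p = 0.0393, and 0.836 without that library). For both genes the whole-retina library at P17 was the highest by far in cone-bipolar-like cells. In Müller-like, rod-bipolar-like, amacrine-like and cone-like cells Hbb-bs was instead highest in the rod-depleted library at P14. It stood there at 6.52, 7.14, 10.2 and 1.94 per 10000, against 1.82, 1.68, 0.0 and 1.6 in whole retina at P17. Of the 14 rod phototransduction genes tested in cone-bipolar-like cells 5 rose, beside 0.541% of all genes, with a median difference of 1.17 beside -0.07, made of 0.59 in rod-depleted and 1.69 in whole retina.

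RNA of the rod list was also found in other classes. Without thinning, its genes together held 0.0379% of the UMIs of Müller-like cells at P14 and 0.110% at P17 in rod-depleted, and 0.206% and 1.57% in whole retina. In rod-bipolar-like cells the shares were 0.112% and 0.183% in rod-depleted and 0.331% and 2.14% in whole retina. Amacrine-like cells had 0.0567% and 0.131%, and 0.191% and 1.695%. Pde6g was at 0.239 and 0.664 per 10000 at P14 and at 1.32 and 15.5 at P17 in Müller-like cells, and at 0.330 and 1.03 and then 0.616 and 18.1 in rod-bipolar-like cells (limma adjusted p = 0.0623 and 0.124). In amacrine-like cells Pde6g was at 0.473 and 0.949 and then at 0.925 and 13.5 (limma adjusted p = 0.181). The whole-retina library at P17 stood highest in each of these classes. The part of free rod RNA in the other differences was not tested.

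Amacrine-like cells, the inhibitory interneurons of the inner retina, gave 2 genes that rose of 2400 tested (0.0833%) and 0 that fell (0.0%) in limma, with 94 higher and 156 lower at an unadjusted p below 0.05. Among them was Tma7, a ribosome-associated factor, at 1.66 and 0.949 per 10000 at P14 and 6.47 and 10.5 at P17 (limma adjusted p = 0.0364, 0.552 without the whole-retina library at P17 and 0.740 without that at P14). Genes of immature neurons leaned down without a call: of 25 tested, 13 had both P17 libraries below both P14 libraries and 1 above, where 19.6% of all genes tested lay below and 14.2% above. Their median was -0.56, with -0.64 in rod-depleted and -0.21 in whole retina, beside -0.07 over all genes. The lean was not particular to this class. The list's median was -0.41 in Müller-like and -0.43 in cone-like cells, beside -0.06 and -0.08 over all genes. In cone-bipolar-like and rod-bipolar-like cells it was -0.24 and -0.11, beside -0.07 over all genes in each. In amacrine-like cells Nnat was at 6.15 and 4.66 and then at 0.462 and 1.85 (-1.64 ± 0.38, limma adjusted p = 0.0765). Rims1, a scaffold of the vesicle release site outside the list of immature neurons, was at 5.44 and 7.83 and then at 0.925 and 0.615 (limma adjusted p = 0.0618). Of 24 genes of vesicle release tested, Rims1 among them, 6 lay apart above and 5 below, where 14.2% and 19.6% of all genes did. Among neuropeptides, Cartpt was at 2.60 and 5.53 at P14 and at 14.6 and 19.7 at P17, with the ages apart, and did not pass (1.89 ± 0.47, limma adjusted p = 0.125). Cartpt did pass in cone-bipolar-like cells, at 1.22 and 0.0 and then at 2.04 and 7.42. No gene of that class passed without either whole-retina library. In amacrine-like cells a Cartpt UMI was found in 7 of 169 and 14 of 506 cells at P14, and in 15 of 173 and 6 of 65 at P17. Calretinin, Calb2, was at 11.4 and 9.17 and then at 7.63 and 6.77 (limma adjusted p = 0.646). The class pools clusters, among them a starburst amacrine cluster led by Rims1 and Calb2. Its cells were counted with the largest cluster, led by Gad1 and Gad2. Together these made up 51.5% of the class at P14 and 42.8% at P17 in rod-depleted, and 57.5% and 56.9% in whole retina. The part of the starburst share in these differences was not tested.

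Rod-bipolar-like cells, which carry rod signals through the glutamate receptor mGluR6, had the most cells but 0 calls of 2123 genes in either direction (0.0%) in limma, with a smallest adjusted p of 0.112 and 324 genes at an unadjusted p below 0.05. Pcp2, a modulator of G proteins and a leading marker of the class, was at 134 and 108 per 10000 at P14 and at 192 and 202 at P17 (0.71 ± 0.24, limma adjusted p = 0.183). The kinase Prkca went the other way, at 11.9 and 25.5 and then at 8.01 and 10.5, and the receptor gene Grm6 was at 12.6 and 11.2 and then at 7.39 and 6.32 (limma adjusted p = 0.183 and 0.259). For these 3 genes the ages did not overlap. In the list of the mGluR6 cascade 2 of 12 members lay apart above and 3 apart below, where 18.1% and 22.5% of all genes tested did, which is near the background.

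Transcription factors of terminal identity leaned down in both bipolar classes, again without a call, and in the other classes tested mainly in whole retina. Their median was -0.62 in Müller-like cells (-0.105 in rod-depleted and -0.85 in whole retina) and -0.42 in amacrine-like cells (-0.03 and -0.60). In cone-like cells it was -0.39 (0.21 and -0.94). Over all genes the medians of these classes were -0.06, -0.07 and -0.08. In cone-bipolar-like cells 9 of 14 lay apart below and 1 above, where 21.8% of all genes did so below and 15.3% above, with a median of -0.71 (-0.45 in rod-depleted and -0.75 in whole retina). In rod-bipolar-like cells it was 6 of 11 below and 0 above, where 22.5% and 18.1% of all genes did, with a median of -0.57 (-0.34 and -0.73). Otx2, needed for photoreceptor and bipolar fate, was at 12.6 and 12.5 per 10000 at P14 and 8.32 and 5.77 at P17 in cone-bipolar-like cells (limma adjusted p = 0.338), and at 10.8 and 9.48 and then 8.29 and 2.95 in rod-bipolar-like cells (limma adjusted p = 0.233). The part of the cluster shares given above in the cone-bipolar-like list was not tested. Isl1, a factor of ON bipolar cells, was at 38.1 and 47.2 and then 26.8 and 25.3 in rod-bipolar-like cells (limma adjusted p = 0.230). Crx, the factor of photoreceptor genes, was not lower: in cone-bipolar-like cells it was at 2.13 and 3.61 and then at 4.23 and 3.71.

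Nuclear-encoded genes of the respiratory chain showed how far the fractions could part. In rod-bipolar-like cells 14 of 36 lay apart above and 1 below, where 18.1% and 22.5% of all genes did, yet the median difference was -0.03 in the rod-depleted pair and 0.82 in whole retina. Ribosomal protein genes had a median of -0.38 in rod-depleted and 0.34 in whole retina in the same cells. Over all cells, whole retina at P14 had the lowest share of ribosomal protein UMIs, 1.756%. The share was 2.974% in whole retina at P17, and 3.725% and 2.729% in rod-depleted at P14 and P17. The part of that low level in these differences was not tested. Of the mitochondrially encoded genes, mt-Co1 was higher in both P17 libraries in each of the 5 tested classes, for example at 8.19 and 15.9 and then at 27.7 and 72.8 per 10000 in rod-bipolar-like cells (limma adjusted p = 0.112), while the list's median there was -0.03 in rod-depleted.

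Cone-like cells gave 0 calls of 2125 genes in either direction (0.0%) in limma, with 192 genes at an unadjusted p below 0.05; at P17 the whole-retina library held 25 of these cells. Opn1sw, the short-wavelength opsin, was at 46.5 and 97.2 per 10000 at P14 and at 151 and 133 at P17, the ages apart (1.06 ± 0.29, limma adjusted p = 0.107). Opn1mw, the medium-wavelength opsin, was at 72.3 and 47.2 and then at 94.3 and 81.6 (limma adjusted p = 0.538), and Arr3, cone arrestin, at 63.9 and 47.8 and then at 101 and 76.8 (limma adjusted p = 0.457). Of 17 cone phototransduction genes, 9 lay apart above and 1 below, where 15.2% and 16.4% of all genes tested did, with a median of 0.33 beside -0.08 over all genes. Of 15 glycolytic genes 8 lay apart above, among them Eno1, an enolase, at 3.87 and 3.58 and then at 11.9 and 19.2 (limma adjusted p = 0.107).

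Rods were numerous only in whole retina, so 729 rod-like cells at P14 were set beside 187 at P17, 1 library each and with no test. Levels are summed UMIs per 10000 without thinning, with exact 95% Poisson intervals that cover counting error only. Of 4608 genes with at least 20 UMIs, 190 were at least 2-fold higher at P17 with intervals apart (4.12%) and 367 lower (7.96%). The median log2 ratio over all of them was -0.37, and single ratios are to be read beside it. The 39 rod-like cells of the rod-depleted library at P17, with 15450 UMIs, lay on the same side of the P14 library for 157 of the 190 and 329 of the 367.

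Rod phototransduction genes moved both ways. The calcium sensors Guca1a and Guca1b, which regulate guanylate cyclase, were at 2.47 (2.02 to 3.0004) and 1.06 (0.768 to 1.42) at P14 and at 17.1 (14.1 to 20.4) and 26.5 (22.9 to 30.7) at P17. In OIR whole retina the same genes were at 0.719 to 2.997 and 10.4 to 14.9 in 3 libraries at P14, and at 8.57 to 9.05 and 27.4 to 27.5 in 2 libraries at P17, so Guca1b at P14 was lower in the room-air library than in any OIR library. Nrl, the factor that sets rod fate, was at 20.8 (19.4 to 22.2) and then 10.2 (7.96 to 12.9), and Rp1, a microtubule protein of the outer segment, at 44.7 (42.7 to 46.8) and then 19.8 (16.6 to 23.4). In OIR, Nrl was at 12.45 to 21.8 at P14 and at 26.7 to 31.3 at P17, so its direction there was the opposite, and Rp1 was at 41.2 to 53.0 and then at 40.3 to 42.0, without a fall of the size seen in room air. Early-response Egr1 was at 10.4 (9.40 to 11.4) and then 0.861 (0.316 to 1.87).

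Some of the largest ratios in rods belonged to genes that set a single library apart. Rpl3, a ribosomal protein, had 0 UMIs at P14 and 45 at P17, at least 89.6-fold higher against a floor of 3 UMIs for the P14 library. Yet over all cells Rpl3 was at 0.0968 per 10000 in whole retina at P14 and at 2.57 to 6.70 in the other 11 libraries of the series. Rps3a1 and Hspa8 behaved alike, at 0.120 and 0.568 there against lowest values of 2.29 and 8.06 elsewhere. In all, 5 genes of whole retina at P14 were under 10% of the lowest other library, and 0 genes in each other room-air library. At the other end stood Xist, at 17.1 per 10000 in rods at P14 and 0 UMIs at P17, at least 39.6-fold lower against a floor of 3 UMIs for the P17 library. Glycolytic genes were higher in 7 of 18 and ribosomal protein genes in 27 of 62, beside the 4.12% of all genes. Genes of Müller glia, Glul, Apoe and Clu among them, were higher in 5 of 14. Over all cells, ribosomal protein genes held 1.756% of UMIs in whole retina at P14 and 2.974% at P17. In the rod-depleted libraries they held 3.725% at P14 and 2.729% at P17. The part of the low level in whole retina at P14 in the rod counts was not tested.

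Vessel cells were compared in the rod-depleted pair, 1 library each and with no test. In 67 endothelial-like cells at P14 and 55 at P17, 94 of 3057 genes were at least 2-fold higher with intervals apart (3.07%) and 120 lower (3.93%). Of 23 immediate early genes 16 were lower and 0 higher. Nr4a1 was at 10.8 per 10000 (9.30 to 12.4) and then 0.895 (0.429 to 1.65), and Junb at 12.6 (11.025 to 14.4) and then 1.34 (0.751 to 2.21). Genes of the blood-retina barrier were higher: Slc2a1, the glucose transporter, at 13.7 (12.0 to 15.5) and 29.6 (26.5 to 33.0), the organic anion carrier Slco1a4 at 8.08 (6.81 to 9.51) and 24.1 (21.3 to 27.1), and the efflux pump Abcb1a at 6.28 (5.17 to 7.56) and 13.2 (11.1 to 15.5). The junction genes parted, with occludin, Ocln, at 0.897 (0.513 to 1.46) and then 2.68 (1.81 to 3.83), and claudin 5, Cldn5, at 63.3 (59.6 to 67.1) and then 24.5 (21.7 to 27.6). Apln, a peptide of sprouting tip cells, was at 2.30 (1.65 to 3.12) and then 0.358 (0.0975 to 0.916). In all, 5 of 22 genes for vessel growth and barrier were higher and 2 lower.

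**Figure D3:**
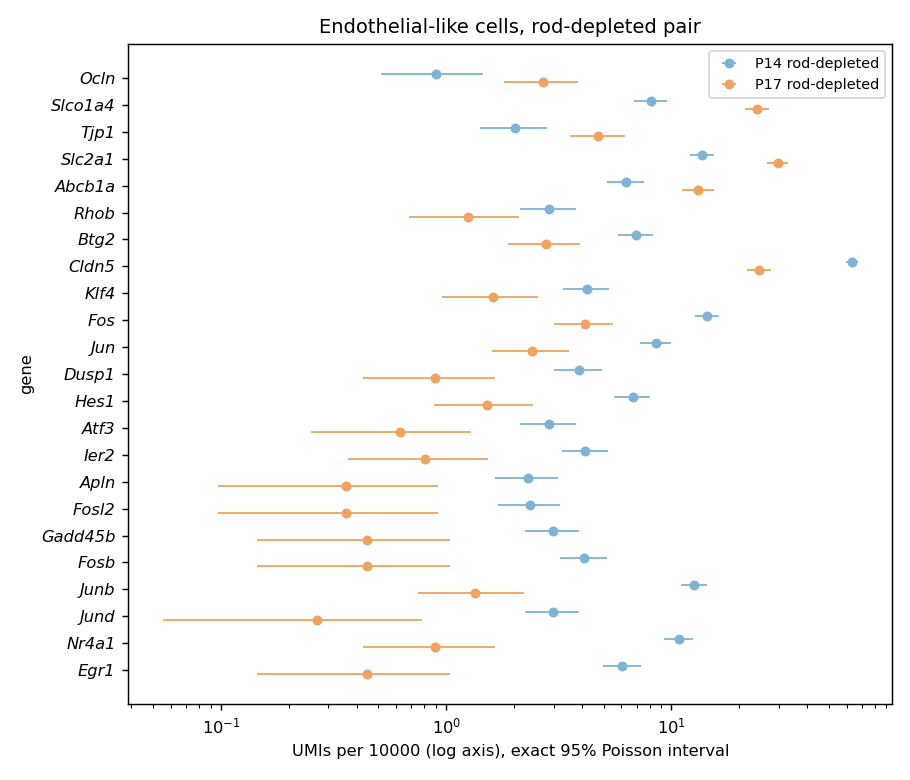
Each row is a gene of the immediate early list or of the list for vessel growth and barrier that was at least 2-fold apart in endothelial-like cells; the x axis is UMIs per 10000 on a log axis, points are the rod-depleted libraries at P14 (blue) and P17 (orange), and bars are exact 95% Poisson intervals. Ocln, Slco1a4, Tjp1, Slc2a1 and Abcb1a are higher at P17 and the other genes lower, as for Nr4a1 at 10.8 and 0.895.

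Endothelial-like cells at P14 also held RNA of other cells. Rgs5, a gene of pericytes, was at 15.2 per 10000 (13.4 to 17.1) in them at P14 and at 0.179 (0.0217 to 0.646) at P17, and Hbb-bs at 8.19 (6.91 to 9.63) and then 0.447 (0.145 to 1.04). Pericyte-like cells showed the reverse, with endothelial Cldn5 at 73 UMIs, or 12.6 per 10000, at P14 and 0 UMIs at P17, at least 26.2-fold lower against a floor of 3 UMIs for the P17 library. The part of such mixed cells in the other differences of the vessel classes was not tested.

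In pericyte-like cells, 40 at P14 and 49 at P17, 34 of 1185 genes were higher (2.87%) and 55 lower (4.64%). Vtn, vitronectin, was at 24.03 (20.2 to 28.4) and then 87.1 (79.9 to 94.7) per 10000, and Timp3, an inhibitor of matrix proteases, at 3.46 (2.11 to 5.34) and then 10.3 (7.90 to 13.1). Of 17 immediate early genes 8 were lower and 1, Cyr61, was higher. In microglia-like cells, 47 and 49, 26 of 953 genes were higher (2.73%) and 32 lower (3.36%). The cluster behind this class scored highest for markers of microglia and second for those of macrophages, a list that holds Cd74. The part of macrophages in the microglia-like differences was not tested. Apoe, the lipid carrier, was at 489.4 (472.1 to 507.3) and then 123.1 (114.0 to 132.8), the chemokine Ccl7 at 8.33 (6.204 to 10.955) and then 0 UMIs (at least 15.2-fold lower by the same floor), and Cd74, the invariant chain of antigen presentation, at 6.53 (4.67 to 8.90) and then 15.8 (12.6 to 19.5). In ganglion-like cells, 50 and 25, 41 of 1626 genes were higher (2.52%) and 32 lower (1.97%). Meg3, a long noncoding RNA, was at 344.0 (333.2 to 355.0) and then 166.5 (154.4 to 179.2), and Cplx1, complexin 1 of the synaptic vesicle machinery, at 4.46 (3.31 to 5.87) and then 12.1 (8.98 to 15.9). Horizontal-like cells (41 and 18) and astrocyte-like cells (22 and 16) were too few at P17 to be compared.

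The recovered classes shifted within fractions, and with 1 library a side there is no test: the 4 ways of exchanging ages within fractions allow no p below 0.5. Shares are of cells with at least 200 genes, with exact 95% binomial intervals that cover counting error only. Cone-like cells made up 62 of 2012 cells (3.08%, 2.37 to 3.93) at P14 and 307 of 2492 (12.3%, 11.1 to 13.7) at P17 in rod-depleted, but 5.05% (4.21 to 5.99) and 4.39% (2.86 to 6.42) in whole retina. Müller-like cells were 25.0% (23.1 to 27.0) and 13.4% (12.1 to 14.8) in rod-depleted and 9.89% (8.74 to 11.1) and 7.73% (5.67 to 10.2) in whole retina. Amacrine-like cells were 20.8% (19.2 to 22.4) and 11.4% (8.93 to 14.3) in whole retina, and rod-like cells 29.9% (28.1 to 31.8) and 32.9% (29.0 to 36.9). The depletion of rods and the filter at 200 genes can each set such shares.

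**Figure D4:**
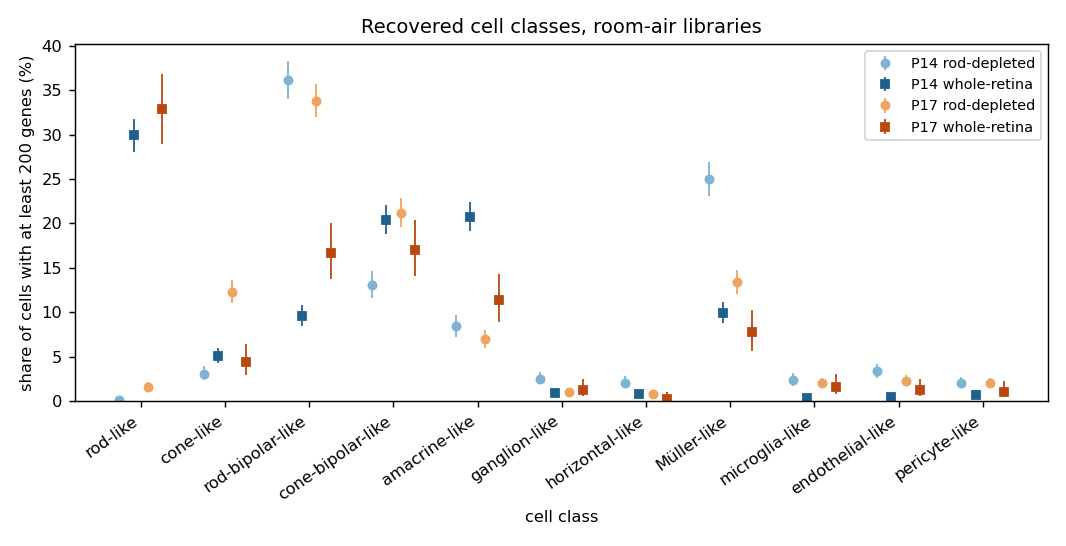
The y axis is the share of cells with at least 200 genes, in percent, for each named class other than astrocyte-like (x axis) in each room-air library; bars are exact 95% binomial intervals, which cover counting error only. Cone-like cells stand at 12.3% in the rod-depleted library at P17 and between 3.08% and 5.05% in the other libraries.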

How the data were processed

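Values were deposited as natural log units for 21408 genes in 31271 cells, ln(1 + UMIs / cell total × 10000), as the values show: 100% of the values lie within 0.05 of whole UMIs, which were recovered. The tools named per the submitters' processing notes are STAR 2.4.0 and bcl2fastq, with builds GRCm38 and mm10; how genes were counted is not given in the sources used here. Another 5799 columns, in 7 sets matched to no sample label, were left aside. Sets among them are named as whole retina at P14 in room air but carry another laboratory's name. Cells with at least 200 genes and 250 UMIs (7478 in room air) were thinned to 250 UMIs and clustered with all 12 libraries (2000 variable genes, 30 principal components, 15 neighbours, leidenalg 0.10.2 at resolution 1.0; 22 clusters). Doublets were kept. Scrublet in Scanpy 1.11.5 marked 0.389% to 1.907% of a library, and leaving them out was an alternative.

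For each class with at least 20 cells in a library, log2(mean UMIs per 10000 + 1) of genes with a mean of at least 1 was fitted with limma 3.58.1 (R 4.3.3), with 4 condition-by-age means and a fraction term over 12 libraries. The room-air difference is the mean of its 2 within-fraction differences, and the 8 OIR libraries give only the spread. P-values are two-sided and Benjamini-Hochberg adjusted within a class. On simulated data with the Müller-like class's 1958 genes, 21% of 2-fold and 75% of 4-fold changes were recovered, with 4 false calls of 100. The same shares were 47% and 95% for the 2123 genes of rod-bipolar-like, 37% and 86% for the 2402 of cone-bipolar-like, 15% and 72% for the 2400 of amacrine-like and 5% and 33% for the 2125 of cone-like cells, so 2-fold changes in the last would mostly be missed. Changes were simulated only in genes above a higher mean than the filter of the test. Each gene's spread was lowered before counting noise was added. The simulation held no effects of fraction, run or free RNA, so the shares may not hold for the real libraries. Classes with 1 usable library at each age were compared by summed UMIs.

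Named genes are up to 12 per direction and class by size among those past the threshold (up to 3 by smallest p where fewer pass), list members past the threshold or with the smallest p, and up to 6 per direction by ratio in a pair with list members that met the same rule. Fos, Btg2, Hes1, Glul, Aqp4, Otx2 and Crx in cone-bipolar-like cells, Calb2 and Opn1mw fall outside this rule and were chosen after their values were seen. Of the 21408 symbols 20007 matched the gene tables. Members and lists were chosen with earlier results of these data known. Values of 1 gene are not reported here.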

Additional observations from a re-analysis of the deposited data

Results flagged for a closer look

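In Müller-like cells 3 genes took different courses from P14 to P17 in room air and in OIR, by the test of the difference itself in limma. The room-air course minus the OIR course was -2.69 ± 0.46 (SE, log2) for Ddit3 (adjusted p = 0.0138), -2.55 ± 0.50 for Socs3 (adjusted p = 0.0402) and 2.64 ± 0.53 for mt-Co1 (adjusted p = 0.0402). Both room-air libraries moved the same way for each gene: -2.11 in rod-depleted and -2.99 in whole retina for Ddit3, -2.79 and -1.32 for Socs3, and 1.30 and 2.13 for mt-Co1. The 3 calls did not last: 0 genes passed with cells thinned to 300 UMIs, and 0 without the whole-retina library at P17 or the rod-depleted library at P14 in room air. Groups here hold too few room-air libraries for a search for single libraries that stand apart within a group.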

How the results depend on the processing

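No paired analysis was possible because the room-air groups compared share only replicate number 1. Thinning to 300 UMIs, dropping the filter on low values, a mean for each of 8 groups, quantile normalization and fitting the 4 room-air libraries alone were planned; fixed cluster shares were chosen after seeing the data. Counts of genes past the threshold were as follows where they moved by over 1.5 times. Müller-like (24): 54 with no filter and 57 with 8 group means. Rod-bipolar-like (0): 15 with 8 group means. Cone-bipolar-like (22): 14 at 300 UMIs, 1 in a second draw, 52 with 8 group means and 0 with 4 libraries alone. Amacrine-like (2): 8 at 300 UMIs, 1 with a pseudocount of 0.2, 12 with no filter, 5 with quantile normalization, 8 with 8 group means, 6 with 4 libraries alone and 1 with fixed cluster shares. Cone-like (0): 2 at 300 UMIs, 6 with no filter, 4 with quantile normalization, 14 with 8 group means and 1 with 4 libraries alone. For the room-air course against the OIR course, Müller-like cells (3) gave 5 with no thinning, 0 at 300 UMIs, 10 with no filter and 6 with 8 group means; cone-bipolar-like cells (0) gave 1 with no filter and 2 with doublets left out; amacrine-like cells (0) gave 2 at 300 UMIs, 1 in a second draw, 3 with no filter and 3 with quantile normalization; cone-like cells (0) gave 3 with no filter and 5 with 8 group means. Leaving out 1 library at a time gave 8 to 344 (Müller-like), 0 to 206 (rod-bipolar-like), 0 to 207 (cone-bipolar-like), 0 to 47 (amacrine-like) and 0 to 62 (cone-like) genes, and for the courses 0 to 140, 0 to 35, 0 to 44, 0 to 12 and 0 to 35; each highest count came without the rod-depleted P17 library. The lowest came without either whole-retina library in room air for Müller-like, cone-bipolar-like and amacrine-like cells. Without the rod-depleted P14 library, rod-bipolar-like cells gave 10, amacrine-like 6 and cone-like 4. A single OIR library left out moved the rod-bipolar-like count to 20, the cone-bipolar-like count to 2 or 8, the amacrine-like count to 5 or 1 and the cone-like count to 15. The cause was not tested. In the pairs, thinning and a 3-fold ratio gave 338 and 326 genes (rod-like), 7 and 38 (ganglion-like), 8 and 45 (pericyte-like), 23 and 130 (endothelial-like) and 12 and 30 (microglia-like), where thinning leaves fewer UMIs to count. At 300 UMIs the median cell had 251 and 248 genes in rod-depleted and 262 and 243 in whole retina. Of 657 single-gene values with a library left out, 449 kept direction and side of the threshold, 172 fell below it, 36 rose past it and 0 reversed; of 522 under other settings these were 390, 103, 29 and 0. Depth limits the P17 whole-retina library most, with 44 Müller-like and 25 cone-like cells.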
